A study of Homo sapiens with 8 samples.

Results

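IFI6, IFI27, IFI44 and IFI44L, 4 interferon-stimulated genes, were followed on bead arrays of interferon-treated U6A cells. They were chosen by their intensities at 4, 8 and 24 h, as genes whose signal kept climbing over these times, so that climb is described here and not tested; 6.35% of all genes tested were higher at 8 than at 4 h and at 24 than at 8 h in both lines. They are 4 of the 20045 genes with a probe of a single symbol, carry 6 probes between them, and all 4 were among the 13656 genes tested. U6A is a human fibrosarcoma line without endogenous STAT2, a transcription factor that forms the complex ISGF3 with IRF9. The cells expressed STAT2 with the T387A substitution, which puts an alanine in place of a threonine, or wild-type STAT2. Each line was sampled untreated (0 h) and after 4, 8 and 24 h with 100 IU/ml of the type I interferon IFN-β, and every line and time had a single array, 8 in all. All cells therefore shared the U6A background, and whether each line is a clone or a pool is not given in the sources used here.

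Type I interferons signal through Janus kinases to ISGF3, which binds interferon-stimulated response elements in promoters. IFI6 and IFI27 encode small hydrophobic proteins of one family: IFI6 sits in the endoplasmic reticulum, where it restricts flavivirus replication, and IFI27 has been placed at mitochondria and the nuclear envelope. IFI44 and IFI44L are neighbouring paralogues that encode cytoplasmic proteins with reported antiviral and antiproliferative activity. All 4 are frequent members of interferon signatures measured in blood.

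The promoters are shown because all 4 genes rose with IFN-β and each held a match to a response element. Each line below gives the 250 bases before the transcription start, 5′ to 3′ on the gene's strand, from RefSeq on GRCh38.p14. Capitals mark matches on either strand to the response element core, which is GAAA, any 2 bases and GAAA again. The windows are chr1:27672193-27672442 on the minus strand for IFI6, and on the plus strand chr14:94110486-94110735 for IFI27, chr1:78649539-78649788 for IFI44 and chr1:78620198-78620447 for IFI44L.
IFI6: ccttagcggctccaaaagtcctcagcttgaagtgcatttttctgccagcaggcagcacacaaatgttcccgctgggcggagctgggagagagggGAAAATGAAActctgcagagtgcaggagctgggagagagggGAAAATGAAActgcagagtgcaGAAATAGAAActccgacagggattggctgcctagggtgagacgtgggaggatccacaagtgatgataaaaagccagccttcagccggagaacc
IFI27: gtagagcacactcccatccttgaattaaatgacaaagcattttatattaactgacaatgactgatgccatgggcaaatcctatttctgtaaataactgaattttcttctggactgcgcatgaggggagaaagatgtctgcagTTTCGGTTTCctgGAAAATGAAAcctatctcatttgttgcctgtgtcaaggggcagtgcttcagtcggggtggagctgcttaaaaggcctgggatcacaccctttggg
IFI44: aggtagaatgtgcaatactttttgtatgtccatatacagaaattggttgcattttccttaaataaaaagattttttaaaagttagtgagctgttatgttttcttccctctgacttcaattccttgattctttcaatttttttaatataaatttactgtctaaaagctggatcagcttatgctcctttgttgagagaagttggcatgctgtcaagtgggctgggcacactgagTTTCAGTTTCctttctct
IFI44L: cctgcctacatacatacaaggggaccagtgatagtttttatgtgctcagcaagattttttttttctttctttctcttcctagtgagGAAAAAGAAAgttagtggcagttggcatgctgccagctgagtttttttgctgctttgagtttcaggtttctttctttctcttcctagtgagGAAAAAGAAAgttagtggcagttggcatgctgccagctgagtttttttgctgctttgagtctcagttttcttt

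IFI6 held 3 matches, IFI27 and IFI44L 2 each and IFI44 1. Over all 35116 RefSeq promoter windows of this length, 3.02% held at least 1 match and 0.225% held 2 or more. Counted from the transcription start, the IFI6 matches began at -156, -115 and -93 and those of IFI27 at -108 and -95, on opposite strands. The IFI44L matches began at -164 and -73 and the IFI44 match at -18. The gamma-activated core TTCNNNGAA, which reads the same on both strands, was found only in IFI27, where it overlaps both response element matches; 6.57% of all windows held it. A second listed start of IFI27, at 94110815, and of IFI44, at 78649831, gave windows with the same matches.

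Both IFI44L matches and 2 of the 3 IFI6 matches lay in repeated stretches. In IFI44L 85 bases occurred 2 times without a mismatch, 91 bases apart, and each copy held 1 match. A repeat at least this long was found in 0.0683% of all windows. In IFI6 29 bases occurred 2 times, 41 bases apart, again with 1 match in each copy, and 0.809% of windows held a repeat of that length or more. The longest stretch that IFI44 and IFI44L shared was 13 bases, agttggcatgctg. That of IFI6 and IFI27 was 12 bases, ggaaaatgaaac, which takes in a response element match. These matches describe the sequence and do not show binding.

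**Figure D1:**
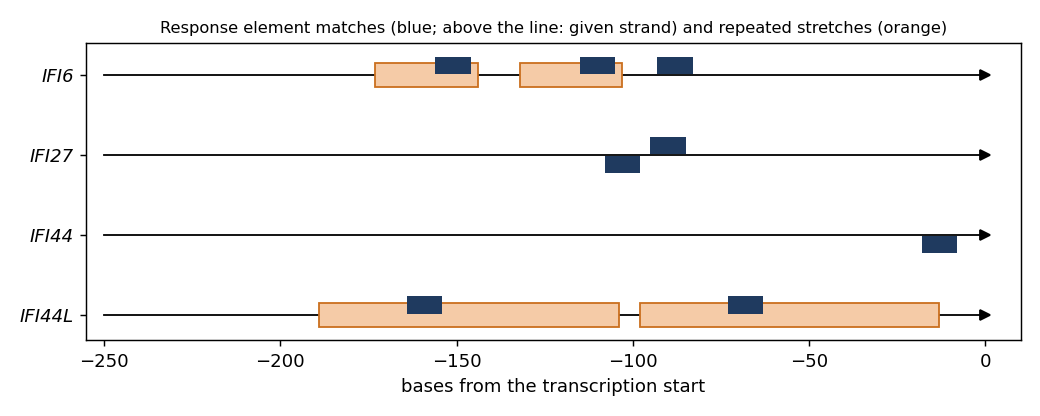
Promoter windows of IFI6, IFI27, IFI44 and IFI44L, drawn to scale in bases from the transcription start. Blue boxes are response element core matches, above the line where they read on the given strand and below it where they read on the other; orange boxes are the repeated stretches of 29 bases in IFI6 and 85 bases in IFI44L, each copy of which holds 1 match.

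The values are linear probe intensities that the authors had corrected for background and brought to a common distribution. Array sums ran from 10093322.9 to 10094141.6. Any value below 10.7, called the floor here, was raised to 10.7. Fold changes against such values are lower bounds where the other values lie above the floor. Precision is limited by having 8 arrays without a repeat. The spread around a fit of time plus line gave an SD of the difference between 2 single arrays of 0.451 on the log2 scale for genes with a mean level under 50, 0.238 for those from 50 to 1000 and 0.149 for those above 1000. The labels name no repeated cultures, and the p-values rest on the spread among these arrays alone. Of 8 mesenchymal markers 7 were above the floor on all arrays, among them VIM at 5466 to 8642 and CD44 at 6114 to 8555, while FN1 stayed at or under 44.8. The immune marker CD14 was above the floor on 3 of 8 arrays, the epithelial marker EPCAM at or under 16.7 and the endothelial PECAM1 between 32.4 and 71.8. The epithelial KRT18 was found at 188.9 to 257.1. STAT2 was not analysed here, which leaves the labelled genotypes unchecked. In RNA from a whole culture, more responding cells and more RNA per cell cannot be told apart.

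IFI6 was read by 2 probes. The probe that stands for the gene, ILMN_2347798, read 125.0, 1197.6, 3351.7 and 7452.2 at 0, 4, 8 and 24 h in T387A cells. It read 74.1, 587.5, 2335.2 and 5849.1 at these times in wild-type cells. The signal was higher at each time than at the one before in both lines, and higher in T387A cells at every time.

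Over both lines IFI6 rose by 3.12 ± 0.18 on the log2 scale by 4 h (SE, 2 arrays against 2, limma adjusted p = 0.0199), or 8.72-fold. By 8 h the rise was 4.86 ± 0.18 (limma adjusted p = 0.00349), or 29.1-fold. The 24 h estimate was 6.10 ± 0.18. The 4, 8 and 24 h arrays all took part in choosing the genes, so these changes from 0 h and their p-values, here and for IFI27, IFI44 and IFI44L, describe the genes and are no independent support.

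The other IFI6 probe, ILMN_1687384, followed a different course. It read 514.3, 1926.2, 1661.0 and 6692.3 in T387A cells and 379.1, 1367.7, 1880.1 and 3829.8 in wild-type cells at 0, 4, 8 and 24 h. Between 4 and 8 h its signal was lower by 0.21 on the log2 scale in T387A cells and higher by 0.46 in wild-type cells, and at 8 h alone T387A was below wild type. With every probe as a feature, its change by 8 h was 2.001 ± 0.24 (limma adjusted p = 0.055), against 4.86 ± 0.18 for the first probe (limma adjusted p = 0.00438). In a fit of the log2 difference between the 2 brightest probes of 2209 genes, made after the values were seen, the IFI6 probes differed by 2.86 ± 0.29 in their change by 8 h. This was the largest difference in size of all pairs at that time, and it did not pass (limma adjusted p = 0.104, 0 pairs called). The pair differed by 1.25 ± 0.29 at 4 h (adjusted p = 0.37) and 2.58 ± 0.29 at 24 h (adjusted p = 0.0945).

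IFI27 had 1 probe. It read 355.4, 1495.2, 4188.2 and 10126.7 at 0, 4, 8 and 24 h in T387A cells, and 221.6, 829.8, 2866.2 and 9106.5 in wild-type cells. The signal climbed at every step in both lines, and the lines drew together at 24 h. Over both lines IFI27 rose by 1.99 ± 0.18 by 4 h, or 3.97-fold (limma adjusted p = 0.0465), a call that was lost with the arrays scaled to one median (adjusted p = 0.0573) or every probe as a feature (adjusted p = 0.0566). By 8 h it rose by 3.63 ± 0.18, or 12.4-fold (limma adjusted p = 0.00504), and the 24 h estimate was 5.10 ± 0.18.

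IFI44 had 1 probe as well. It read 57.5, 693.8, 2279.2 and 2904.3 at 0, 4, 8 and 24 h in T387A cells, and 38.3, 318.7, 1327.9 and 2438.6 in wild-type cells. The signal climbed at every step, with little added after 8 h in T387A cells: the step from 8 to 24 h was 0.35 on the log2 scale there and 0.88 in wild-type cells. Over both lines IFI44 rose by 3.33 ± 0.22 by 4 h, or 10.02-fold (limma adjusted p = 0.0225). By 8 h the rise was 5.21 ± 0.22, or 37.1-fold (limma adjusted p = 0.0044). The 24 h estimate was 5.83 ± 0.22.

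IFI44L, the paralogue of IFI44, came close to the floor. Its probe ILMN_1723912 was below the floor in T387A cells at 0 h and read 19.8, 200.0 and 396.1 at 4, 8 and 24 h. In wild-type cells it was below the floor at 0 and 4 h and read 73.3 and 135.0 at 8 and 24 h. Both lines were thus above the floor from 8 h on. By 4 h the estimate was 0.44 ± 0.40, which did not pass (limma adjusted p = 0.632), and only the T387A array lay above the floor. By 8 h IFI44L rose at least 11.3-fold (limma adjusted p = 0.0430). That call was lost with the floor doubled (adjusted p = 0.0669), with the mean of its probes (adjusted p = 0.0567) and with the floor at 100 (adjusted p = 0.468). The 24 h estimate was at least 21.6-fold. Its second probe, ILMN_1835092, stayed dim: 17.2, 26.6, 29.9 and 53.2 in T387A cells, and 21.6, 17.9 and 19.0 at 4, 8 and 24 h in wild-type cells after a value below the floor at 0 h. With every probe as a feature the second probe did not pass at 8 h (0.77 ± 0.29, limma adjusted p = 0.344).

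**Figure D2:**
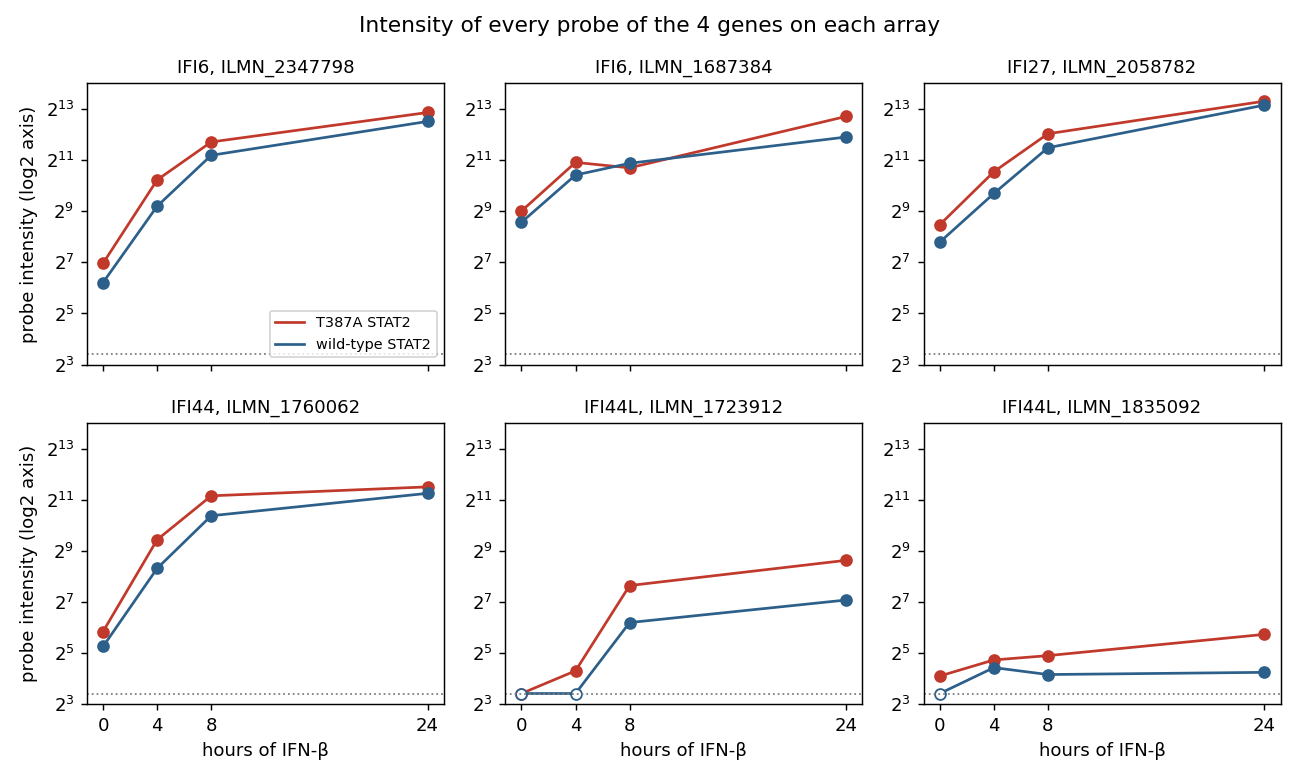
Intensity of all 6 probes of the 4 genes on a log2 axis against hours of IFN-β, for T387A cells (red) and wild-type cells (blue), 1 array per point. The dotted line is the floor of 10.7 and open points are values below it; IFI6 probe ILMN_1687384 alone of the bright probes was lower at 8 h than at 4 h in 1 line.

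Counted together, 3 of the 4 genes passed at 4 h and all 4 at 8 h by limma, where 0.264% and 0.806% of all genes tested were called higher. At 24 h all 4 passed beside 0.813% of all genes. Since the 4, 8 and 24 h arrays chose the genes, nothing is read from any of these 3 counts. Leaving out any 1 of the 8 arrays, which leaves 2 residual degrees of freedom, left 0 of the 4 genes and 0 of all genes called at 4, 8 and 24 h. The fits at 4 and 8 h compare treated cells with 0 h, and time in culture without IFN-β was not analysed here.

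With the 6 treated arrays set against the 2 untreated ones, none of the 4 passed, where 0.124% of all genes were called higher. The estimates were 4.79 ± 0.83 for IFI44 (limma adjusted p = 0.124), 4.70 ± 0.94 for IFI6 (limma adjusted p = 0.166) and 3.57 ± 0.98 for IFI27 (limma adjusted p = 0.305). That of IFI44L was 6.93-fold (limma adjusted p = 0.514). It is not a strict bound, since both 0 h arrays and the wild-type 4 h array were at the floor. At an unadjusted p under 0.05, 3 of the 4 were below the threshold, as were 1438 of the 13656 genes. This fit counts the differences among 4, 8 and 24 h as spread.

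**Figure D3:**
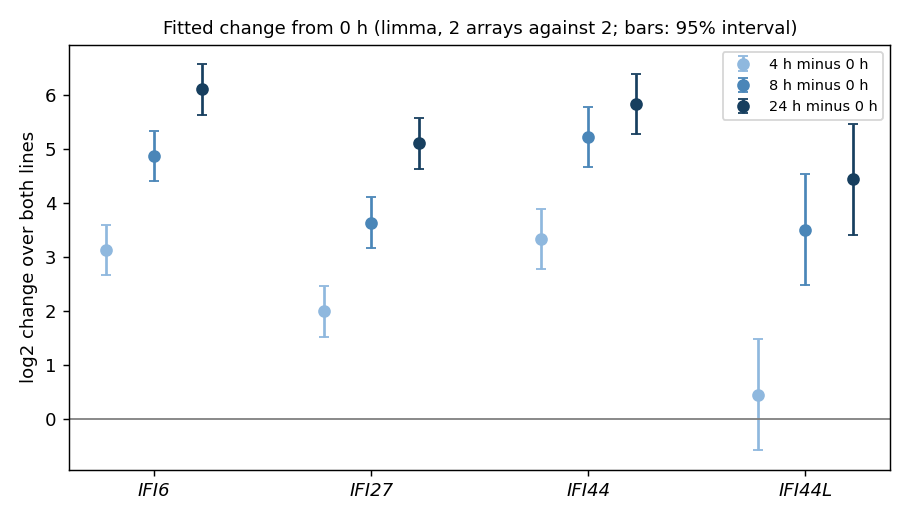
Fitted log2 change from 0 h over both lines for IFI6, IFI27, IFI44 and IFI44L at 4, 8 and 24 h of IFN-β, with 95% intervals (limma, 2 arrays against 2). At each time IFI44L has the widest interval, and its 0 h values are at the floor.

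The rise between 4 and 24 h, which chose the genes, was at least 15.9-fold for IFI44L, 8.62-fold for IFI27, 7.87-fold for IFI6 and 5.66-fold for IFI44, by the probe that stands for each gene. By the second probes it was smaller: 1.64 on the log2 scale against 2.98 for IFI6, and 0.41 for IFI44L, whose second probe was higher at 24 h than at 4 h in T387A cells only. With the mean of a gene's probes it was 2.24 for IFI6 and 3.0 for IFI44L. The IFI44L value also moved with the floor, to 3.43 with the floor doubled, 2.57 with no floor and 1.21 with the floor at 100. By the probe that stands for each gene, IFI27 at 4 h stood at 14.8% of its own 24 h level in T387A cells and at 9.11% in wild-type cells. For IFI6 these values were 16.1% in T387A cells and 10.04% in wild-type cells, and for IFI44 23.9% and 13.1%. IFI44L at 4 h stood at 5.00% of its 24 h level in T387A cells and at no more than 7.93% in wild-type cells. By 8 h IFI44 had reached 78.5% of its 24 h level in T387A cells and 54.5% in wild-type cells, IFI27 41.4% and 31.5%, IFI6 45.0% and 39.9%, and IFI44L 50.5% and 54.3%. By the probes that stand for the genes, IFI44 was thus nearest to its 24 h level at 8 h in T387A cells, and IFI27 farthest from it in both lines. The second IFI6 probe, ILMN_1687384, was farther from it than IFI27 in T387A cells, at 24.8% at 8 h, and stood at 49.1% in wild-type cells. At 4 h this probe stood at 28.8% of its 24 h level in T387A cells and 35.7% in wild-type cells. The dim second IFI44L probe stood at 56.2% and 94.2% at 8 h in T387A and wild-type cells.

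A list of 51 other interferon-induced genes serves for comparison, of which 48 were tested. Of these, 21 rose by 4 h and 39 by 8 h by limma, none fell, and their median changes were 2.30 and 3.61 on the log2 scale, beside medians of 0.00 over all genes tested. The 4 genes had medians of 2.56 and 4.24. For the 42 genes of the list whose 24 h change was at least 2, the level at 4 h was 11.7 to 150.8% of the 24 h level with a median of 43.8%, as the geometric mean of both lines. In the 4 genes, by the probes that stand for them, it was 6.29 to 17.7%, a difference that the choice of the genes fixes. IFIT2, IRF9 and IFIT5 had the largest shares of their 24 h log2 change at 4 h, at 111.1%, 105.5% and 101.7%. LGALS9, ISG20 and BST2, the virus-tethering protein tetherin, had the smallest, at 8.57%, 21.5% and 23.1%. Shares of the log2 change are not comparable with the shares of the 24 h level given before. As shares of the log2 change, IFI6 stood at 51.2%, IFI27 at 39.02%, IFI44 at 57.07% and IFI44L, with 0 h values at the floor, at 10.01%. Of the 42 listed genes, 15 were at or below the highest of these 4 shares. IFIT2, which binds viral RNA, read 44.5, 4715.2, 7192.5 and 2191.6 in T387A cells and 56.9, 2024.6, 4335.7 and 1915.1 in wild-type cells. It was highest at 8 h. The 4 genes were highest at 24 h by the probes that stand for them, which their choice fixes. Some listed genes, among them BST2 and ISG15, were also highest at 24 h in both lines. The second IFI44L probe was highest at 4 h in wild-type cells (21.6, against 19.0 at 24 h). Of 13 tested genes of class I antigen presentation 0 passed by 4 h and 6 rose by 8 h by limma; HLA-B had a change of 0.25 by 4 h (adjusted p = 0.622) and 1.46 by 8 h (adjusted p = 0.0795).

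**Figure D4:**
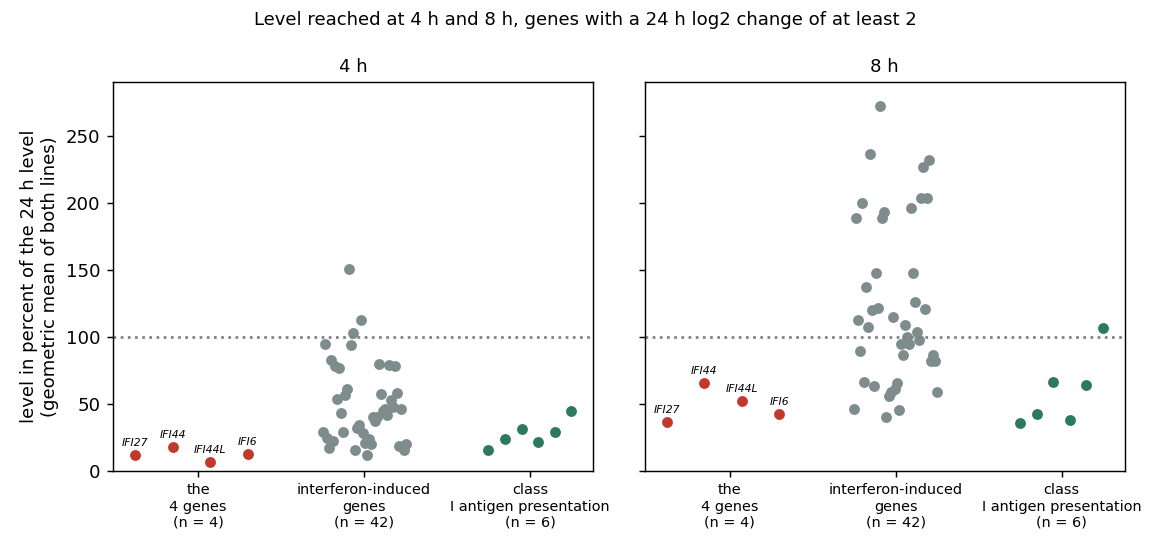
Level at 4 h (left) and 8 h (right) in percent of the 24 h level, as the geometric mean of both lines, for the 4 genes, 42 interferon-induced genes and 6 genes of class I antigen presentation whose 24 h log2 change was at least 2. Each point is a gene, by the probe that stands for it. The 4 genes lie between 6.29 and 17.7% at 4 h and between 36.1 and 65.4% at 8 h.

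The genes most like each member were sought over the 8 arrays by Pearson r of log2 intensity among 236 genes that varied at least 4-fold; the arrays share lines and times, so r describes the common course. Nearest to IFI6 were IFITM1 (r = 0.997), IFI35 (r = 0.996) and UBA7, the activating enzyme of ISG15 (r = 0.995). IFITM1, which restricts virus entry, was also nearest to IFI27 (r = 0.991), followed by IFITM3 (r = 0.990) and IFI35 (r = 0.986). IFITM1 read 99.5, 677.5, 1758.4 and 4344.1 in T387A cells and 83.2, 431.9, 1179.8 and 2920.2 in wild-type cells, and like both genes it was highest at 24 h. Nearest to IFI44 were HES4, a transcriptional repressor (r = 0.997), the dynamin-like GTPase MX2 (r = 0.995) and the ubiquitin-like ISG15 (r = 0.993). Nearest to IFI44L were HLA-E (r = 0.984), XAF1 (r = 0.982) and the ISG15 ligase HERC5 (r = 0.977). Among themselves IFI6 and IFI44 were closest (r = 0.994), and IFI44 and IFI44L, the paralogues side by side on chromosome 1, were the least alike (r = 0.878). The values of IFI44L at the floor enter its r. HERC5 and MX2 were also at the floor on both 0 h arrays, which enters their r, and HERC5 read at most 50.4.

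Estimates of T387A minus wild type were above 0 for all 4 genes, and none passed the test over all genes. The direction was shared by 46 of the 48 listed interferon-induced genes, with a median estimate of 0.47, and by all 13 class I genes. Of all 13656 genes tested, 6837 had an estimate above 0. For the 4 genes the values follow. The estimates over 4 arrays against 4 were 0.97 ± 0.28 for IFI44L (limma adjusted p = 0.375), 0.69 ± 0.15 for IFI44 (adjusted p = 0.329), 0.66 ± 0.13 for IFI6 (adjusted p = 0.316) and 0.56 ± 0.13 for IFI27 (adjusted p = 0.339). Their 95% intervals were 0.24 to 1.70, 0.29 to 1.08, 0.33 to 0.99 and 0.22 to 0.89 on the log2 scale. For IFI44L both 0 h arrays and the wild-type 4 h array were at the floor. The IFI44L estimate was 1.30 without both 0 h arrays and 0.64 with the floor at 100. All 4 genes had an unadjusted p under 0.05, as had 1496 of the 13656 genes, while 0 genes (0%) were called in either direction. By the probes that stand for them, IFI6, IFI27 and IFI44 were higher in T387A cells at all 4 times, as were 8.63% of all genes tested, and IFI44L at the 3 times at which either array was above the floor. The second IFI6 probe, ILMN_1687384, was lower in T387A cells at 8 h (1661.0 against 1880.1).

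Before treatment IFI6 was 1.69-fold, IFI27 1.60-fold and IFI44 1.501-fold higher in T387A cells, which on the log2 scale is 0.75, 0.68 and 0.59. A difference of at least 1.5-fold at 0 h, a threshold applied to direction after the values were seen, was reached by 5.54% of all genes and by 3.99% of the 9106 genes above the floor on all arrays. In the list of interferon-induced genes it was reached by 5 of 48, namely OASL, DTX3L, SAMD9L, TRIM22 and OAS3, named after their values were seen, and the list's median was 0.065. IFI44L was below the floor in both lines.

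At 4 h the differences were 1.12 for IFI44, 1.03 for IFI6 and 0.85 for IFI27, and IFI44L was at least 1.85-fold higher in T387A cells. IFI44 and IFI6 were thus at least 2-fold higher, as were 1.63% of all genes and 23 of 48 genes of the list, whose median was 0.98. At 8 h the differences were 0.78, 0.52 and 0.55 for IFI44, IFI6 and IFI27, none of them 2-fold, where 0.864% of all genes and 7 of 48 of the list were, and at 24 h 0.25, 0.35 and 0.15. The list's medians were 0.53 and 0.22 at these times. By these probes the difference was largest at 4 h and smallest at 24 h in IFI44, IFI6 and IFI27. The second IFI6 probe, ILMN_1687384, ran otherwise, with differences of 0.44, 0.49, -0.18 and 0.81 at 0, 4, 8 and 24 h, the largest at 24 h.

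For IFI44L the difference was larger at 8 and 24 h than the bound at 4 h. It was 2.73-fold higher in T387A cells at 8 h (200.0 against 73.3) and 2.93-fold at 24 h (396.1 against 135.0), or 1.45 and 1.55 on the log2 scale. Its second probe, dim as it was, read 53.2 in T387A cells and 19.0 in wild-type cells at 24 h, a difference of 1.49. The second IFI6 probe also had its largest difference at 24 h, 1.75-fold (6692.3 against 3829.8), so the contrast between IFI44L and IFI6 depends on the IFI6 probe. At least 2-fold higher at 24 h were 2.15% of all genes and 3 of the 48 genes of the list, CXCL10 (1.61), RSAD2 (1.18) and TRIM22 (1.16), named after their values were seen. IFI44, separated from IFI44L by 3643 bases, was 1.19-fold higher in T387A cells at 24 h. The contrast between the 2 paralogues rests on 1 array per line and time and has no test.

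**Figure D5:**
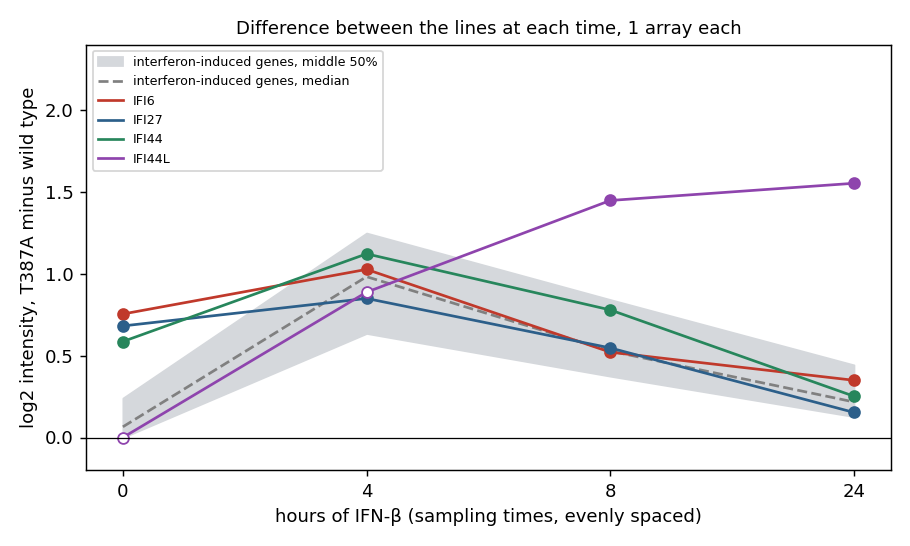
Log2 intensity in T387A minus wild-type cells at each time for IFI6, IFI27, IFI44 and IFI44L, each by the probe that stands for the gene, 1 array each, with the median (dashed) and the middle 50% (grey) of 48 interferon-induced genes. Open points have an array at the floor; IFI44L ends at 1.55 at 24 h while the other 3 end between 0.15 and 0.35; the second IFI6 probe, not drawn, ends at 0.81.

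Whether IFN-β raised the genes to a different degree in the 2 lines was tested as the interaction of line and treatment. None of the 4 passed by limma, none had an unadjusted p under 0.05, and 0.747% of all genes were called. The estimates, T387A response minus wild-type response, were 1.30 for IFI44L, which has both 0 h arrays at the floor, 0.13 for IFI44, -0.12 for IFI6 and -0.16 for IFI27, with adjusted p = 1 for each. With time as 4 levels the intervals narrowed: -1.22 to 0.97 for IFI6, -1.25 to 0.92 for IFI27, -1.22 to 1.48 for IFI44 and 0.19 to 2.41 for IFI44L (adjusted p = 0.571). The intervals of IFI6, IFI27 and IFI44 hold differences in response of either sign.

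The genes beside the 4 were looked at as well. IFI6 lies at 27666064 to 27672192 and IFI44L and IFI44 at 78620448 to 78646145 and 78649789 to 78664078 on chromosome 1, and IFI27 at 94105894 to 94116690 on chromosome 14 (GRCh38.p14). The IFI27 promoter window shown above, from 94110486, lies inside these bounds of IFI27, and no window before the lower bound was searched. Of 12 tested genes that are the nearest 2 on each side, leaving out the members, 0 rose and 0 fell by 8 h by limma, beside 0.806% and 0.139% of all genes, and by 24 h 1 rose and 1 fell, beside 0.813% and 0.205%. The gene that rose was IFI27L1, a relative of IFI27 whose end lies 3185 bases below the lower bound of IFI27, 94105894. It read 426.2, 513.9, 545.2 and 787.0 in T387A cells and 379.8, 431.2, 458.0 and 701.2 in wild-type cells. Its change by 24 h was 0.88 on the log2 scale (limma adjusted p = 0.0254), against 5.10 for IFI27. Its second probe read 47.3, 70.5, 73.0 and 92.2 in T387A cells and 80.3, 67.5, 53.7 and 105.3 in wild-type cells. IFI27L2, the relative on the other side of IFI27, had a change of -0.37 by 8 h (adjusted p = 0.378) and 0.18 by 24 h (adjusted p = 0.633). The kinase gene FGR, beside IFI6, fell by 1.21 by 4 h (limma adjusted p = 0.0394), where 0.0806% of all genes fell. By 24 h FGR fell by 1.24 (limma adjusted p = 0.0186). Its highest value was 27.0. The T387A array at 4 h and both 24 h arrays were at the floor, and the wild-type array at 4 h read 11.2.

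Response element matches were also counted in the comparison lists. The response element core was found in the promoter windows of 26 of 40 interferon-induced genes that have one and of 7 of 12 genes of class I antigen presentation, beside 3.47% of the 10765 tested genes with a window. At least 2 matches were held by 12 of these 40 interferon-induced genes and by 3 of the 4 genes, beside 0.325% of the tested genes. Of 6 tested genes of the receptor and its signal transduction 1 rose by 8 h, IRF9, the DNA-binding partner of STAT2 (3.32 on the log2 scale, adjusted p = 0.0099), and 0 of the 5 with a window held a match.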

How the data were processed

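The authors deposited linear intensities for 8 Illumina bead arrays. Per the submitters' processing notes GenomeStudio was used, with version and settings not given in the sources used here. Ranks and signs show that background had been subtracted (28.6% at or below 0) and that arrays had been quantile-normalized (78.6% of ranks identical on all arrays), so no further normalization was applied. Of 47315 probes 30111 carried 1 gene symbol; for a gene with several probes, the one with the highest mean stood for it. A floor of 10.7 was set, the absolute value of percentile 1 being above the median, and log2 was taken of the floored values. Genes above this floor on at least 1 array were tested with limma 3.58.1 (R 4.3.3; lmFit, eBayes, Benjamini-Hochberg over all tested genes, threshold 0.05), on all 8 arrays. Changes by 4, 8 and 24 h and the line difference came from time plus line. The interferon response came from line plus treated, and the interaction from line, treated and their product. Groups came from the sample titles. Scripts were tested on simulated data. The members, the lists and the rule for named genes (members, the 3 most alike genes, the nearest 2 neighbours per side, the 3 fastest and 3 slowest listed genes, single genes) were chosen with earlier results of these data known. Alternatives covered scaling, floor, filter, probe choice, prior and left-out arrays.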

Additional observations from a re-analysis of the deposited data

Results flagged for a closer look

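The second probes of IFI6 and IFI44L moved in opposite directions in the 2 lines between 4 and 8 h. For IFI6 probe ILMN_1687384 the 8 h minus 4 h change was -0.21 on the log2 scale in T387A cells and 0.46 in wild-type cells, a difference of -0.6728. For IFI44L probe ILMN_1835092 it was 0.17 in T387A cells and -0.27 in wild-type cells, a difference of 0.4398. Each change rests on 1 array per line and time, and neither difference was tested.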

How the results depend on the processing

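By 4 h, with 47 genes called in all, the alternatives gave 292 (floor doubled), 259 (no floor, offset of 16), 619 (floor at 100), 85 (above the floor on at least 4 arrays), 104 (mean of a gene's probes) and 350 (trended and robust prior). By 8 h, with 129, they gave 257, 270 and 468 for the 3 floor settings and 300 for the prior. By 24 h, with 139, they gave 264, 270, 351 and 275 for the same 4. For the interferon response, with 25, they gave 71 with no floor, 38 with every probe and 64 with the prior, and 2 and 1 of the 4 genes were called with no floor and with the prior, against 0. For T387A against wild type, with 0, they gave 1, 7 and 10 for the 3 floor settings, 1 for at least 4 arrays and 2 for the prior. For the interaction, with 102, they gave 2 (cyclic loess), 39 (mean of probes), 198 (every probe) and 0 for each floor setting, at least 4 arrays, the prior and time as 4 levels. Leaving out 1 array at a time gave 0 to 131 genes for the interferon response, 0 to 119 for the interaction, which cannot be estimated without a 0 h array, and 0 to 0 for the changes by 4, 8 and 24 h, with 0 of the 4 genes. Genes at least 2-fold apart between the lines numbered 330, 381, 231 and 583 at 0, 4, 8 and 24 h. They numbered 60, 87, 51 and 118 with the floor doubled, 1, 35, 9 and 14 with no floor, 0, 23, 10 and 8 with the floor at 100, and 1420, 1475, 1191 and 1915 at 1.5-fold; the mean of probes gave 216 at 0 h. IFI44L by 24 h lost its call with the floor at 100 (1.21, limma adjusted p = 0.125). Causes were not tested. The fit of T387A against wild type pairs the lines at each time; without the term for time it also called 0 genes, and the SE of IFI6 was 1.64 in place of 0.13.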
